A study of Drosophila melanogaster with 2 samples.

Results

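Peaks of eGFP-tagged Ham (hamlet) lay away from gene starts as well as at them, and 278 of the 1495 pooled thresholded peaks were either intergenic or exonic and off promoters: 176 intergenic peaks and 102 exonic peaks. A peak was taken when its summit lay on a main chromosome arm and more than 500 bp from every annotated transcript start. It was called intergenic when the summit was outside every gene body and exonic when it was inside an annotated exon, UTR included. Within the thresholded list, position alone chose the peaks, and their height, replicate support and sequence were not used. The list itself was cut by the authors' threshold, labelled IDR (irreproducible discovery rate), which may depend on height and on agreement between replicates. Height and support are therefore compared below only among peaks that had passed that threshold. The other main-arm peaks were 735 promoter peaks, whose summits lay within 500 bp of a start, and 408 intronic peaks, and 74 peaks off these arms were not classed. The limit at 500 bp cut through a continuous range of distances: 46 main-arm peaks lay in the last 100 bp inside it and 20 intergenic or exonic peaks in the first 100 bp beyond it. The ph-p peak at 497 bp fell on the promoter side with a signal value of 630, the CG17896 peak at 504 bp fell on the intergenic side with 363, and the Fbl6 peak at 515 bp fell on the exonic side with 236.

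Chromatin came from whole Drosophila melanogaster embryos of 0 to 24 hours, from a transgenic strain making a ham-eGFP fusion, and was precipitated with an anti-GFP antibody after sonication to 200 to 800 bp. The series holds 2 biological replicates of this single group, so no genotype, treatment or stage was compared, and a whole-embryo sample mixes every tissue and all these ages. Control libraries were not analysed here and the depth of each library is unknown. Replicate 1 had 516 thresholded peaks and replicate 2 had 1050, and an overlap with "both replicates" below means that a pooled peak shared at least 1 bp with a thresholded peak of each.

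Ham is a zinc finger protein of the PRDM family, related to mammalian PRDM3 (EVI1) and PRDM16, and is known in flies for its part in the fates of sensory organ cells and neurons. Transcription factors bind at promoters and at distal elements, which usually lie in introns or between genes and are short, accessible stretches of DNA. Coding exons are richer in G and C than the DNA between genes, which is background to the sequence results below.

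The base composition at the summit set the coding peaks apart from the rest, so the 29 bases centred on the summit are shown for some of the highest peaks of each kind, none of them in a UTR, read from the RefSeq Release 6 genome on the plus strand. Capitals mark runs of at least 5 bases of A or T. The intergenic peaks are named by the coding gene whose start is nearest:
tara, chr3R:16222464-16222492: atccccccAATAAATggcaacccatccca
CG17896, chrX:493985-494013: atcAATTTTATggtaatcaagccagttta
chinmo, chr2L:1638805-1638833: gATATTTTActcatttgattaccTTTAAT
sp3, chr3R:21520343-21520371: taaagtcggccgctaccagaatagtagtt
foxo, chr3R:14053572-14053600: cgtacTAATAATTgaatcAATTATTActc
CG4702, chr3R:12121354-12121382: gtttgcctgcttggacTTATAcgcaagca
The coding-exon peaks are named by the gene that holds them:
CG11951, chr3R:29237169-29237197: ataactcctcgtagTATTTgagtactttg
Pde1c, chr2L:11816608-11816636: catcggccgtttccgtttccggcttgctt
Nep5, chr3R:27058282-27058310: ctcgggcgcatttgaaggtcctggcaaac
CG3984, chr3R:15138428-15138456: ccctgctgcaacgtattcgctccgcgggt
CG32447, chr3L:21694406-21694434: gcgtgggcggtgcggcttgctgtggtggc
toc, chr2L:3127514-3127542: tggcgctcttcttcagactgctgcccaaa
The peaks in exons of non-coding RNAs are named likewise:
lncRNA:CR44619, chrX:12752374-12752402: AAAAAATATcgcacatccctgaacagtgc
lncRNA:CR46035, chr3R:17704420-17704448: caaaagactgaactttggcctaagattcc
lncRNA:CR44619, chrX:12754540-12754568: aagcgaagAAAAATTAAATAAATATTTTT
asRNA:CR45189, chr3R:30781704-30781732: atggatagttgattgtacacgacgatcta
A+T made up 48.3% (tara) to 79.3% (chinmo) of the 6 intergenic stretches and 24.1% (CG32447) to 65.5% (CG11951) of the 6 coding stretches. Runs of A or T occurred in 5 of the 6 intergenic stretches and in 1 of the 6 coding ones, that of CG11951. The stretches are examples: the tallest coding peak, at otp, and the tall intergenic peak nearest to CG13323 are not among them. These counts are therefore not shares of either kind, and A+T over all windows, beside candidates, is given below.

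Few candidate regions outside promoters passed the threshold. Of the 147354 candidate regions on the main arms, 0.964% were in the thresholded list. The share was 0.494% of intergenic candidates and 0.286% of exonic candidates, beside 0.745% of intronic and 3.46% of promoter candidates. Exons held about as many candidates (35707) as the DNA between genes (35631), and fewer of them passed. Within exons, 80 of 30172 candidates in coding sequence passed (0.265%), against 12 of 1242 in exons of non-coding RNAs and pseudogenes (0.966%), 5 of 927 in 5′ UTRs (0.539%) and 5 of 3366 in 3′ UTRs (0.149%). The division of exons by feature was made after the values were seen and has no test of its own.

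Exonic peaks were less often tall than those of every other class. The signal value, the authors' own peak height, had a median of 73.4 for exonic peaks (range 3.47 to 336), 82.3 for intergenic peaks (range 2.40 to 422), 86.8 for intronic peaks and 102 for promoter peaks. A signal above 91.6, the median of all main-arm peaks, was reached by 17 of 102 exonic peaks (16.7%) and 72 of 176 intergenic peaks (40.9%). It was reached by 44.1% of intronic peaks and by 441 of 735 promoter peaks. By two-sided Fisher's exact tests, with p-values adjusted by Benjamini and Hochberg's method over the 10 tests of height and replicate support, exonic peaks were less often tall than intergenic (adjusted p = 5.99e-05), intronic (adjusted p = 4.26e-07) and promoter peaks (adjusted p = 5.86e-16). The same exact test called intergenic peaks less often tall than promoter peaks (adjusted p = 1.61e-05), and their share missed the threshold of 0.05 against intronic peaks (adjusted p = 0.582). In each replicate's own list, with its own median, the exonic shares lay on the same side and Fisher's exact test missed the threshold against intronic peaks (adjusted p = 0.112 for replicate 2 and 0.212 for replicate 1) and against intergenic peaks (0.0716 and 0.388), as did intergenic against promoter peaks in replicate 2's list (0.298). In the conservative list the exonic share missed it in the exact test too, against intronic (adjusted p = 0.306) and intergenic peaks (adjusted p = 0.319), and peaks of one list are not independent samples of embryos.

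**Figure D1:**
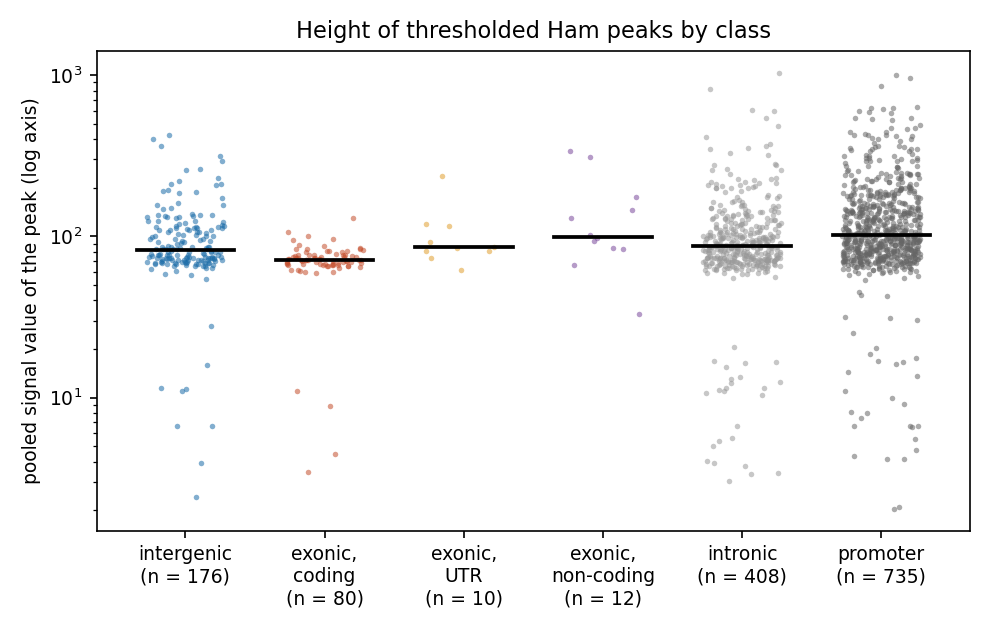
Pooled signal value (log axis) of each thresholded main-arm peak by class; every point is 1 peak and the black bar is the median. Coding-exon peaks crowd near their median of 71.1 and 1 of them lies above 107, whereas intergenic peaks and those in non-coding exons reach 422 and 336.

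The low exonic heights came from the coding sequence. The 80 coding peaks had a median of 71.1 and a highest value of 129, at otp, and 5 of the 80 lay above 91.6. The 22 exonic peaks outside coding sequence had a median of 92.5, and 12 of the 22 lay above it. Most peaks in the list were 336 bp wide, and 9 intergenic and 3 exonic ones were narrower. Those narrower intergenic peaks had signal values of 207 to 422 and the narrower exonic ones of 236 to 336, whereas every coding peak had the common width.

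At the low end, 9 intergenic peaks had a signal value under 50, and all 9 overlapped a higher thresholded peak. Of 5 such exonic peaks, 4 did. Examples are the pair upstream of ph-d (125 and 3.91, with summits 206 bp apart), the pair inside the coding exon of Sf3a1, a splicing factor subunit (71.1 and 3.47, 205 bp apart), and the pair near CG6163 (72.9 and 2.40, 202 bp apart). In all, 19 intergenic and 8 exonic peaks overlapped another thresholded peak.

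Replicate support followed the same order as height. Both replicates' lists held 32 of 176 intergenic peaks (18.2%, 95% Wilson interval 13.2 to 24.5) and 6 of 102 exonic peaks (5.88%, interval 2.72 to 12.2), beside 25.3% of all main-arm peaks, 19.6% of intronic and 32.9% of promoter peaks. Neither replicate's list held 72 exonic peaks (70.6%) and 68 intergenic peaks (38.6%), against 34.1% of intronic and 21.4% of promoter peaks. Exonic peaks were found in both replicates less often than intergenic (Fisher's exact test, adjusted p = 0.00447), intronic (adjusted p = 0.000806) and promoter peaks (adjusted p = 2.82e-09), and intergenic peaks less often than promoter peaks (adjusted p = 0.000185). Between intergenic and intronic peaks the exact test missed the threshold (adjusted p = 0.732). Against replicate 2's list alone the differences were larger: 26.5% of exonic, 54.5% of intergenic, 62.7% of intronic and 75.5% of promoter peaks overlapped it. In the conservative list, Fisher's exact test of exonic peaks missed the threshold against intronic (adjusted p = 0.127) and intergenic peaks (adjusted p = 0.186). The intervals cover counting error only.

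The split inside exons was sharper still. None of the 80 coding peaks was in both lists (0%, Wilson interval up to 4.58), 12 were in replicate 2's list alone, 1 was in replicate 1's alone, and 67 (83.8%) were in neither. The 12 peaks in exons of non-coding RNAs and pseudogenes had 4 in both lists and 1 in neither. Of the 10 UTR peaks, 2 were in both lists and 4 in neither. Height and support moved together: among intergenic peaks, 27 of the 32 in both lists were above the main-arm median height, and 3 of the 68 in neither list were. Whether height alone sets the difference in support was not tested.

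**Figure D2:**
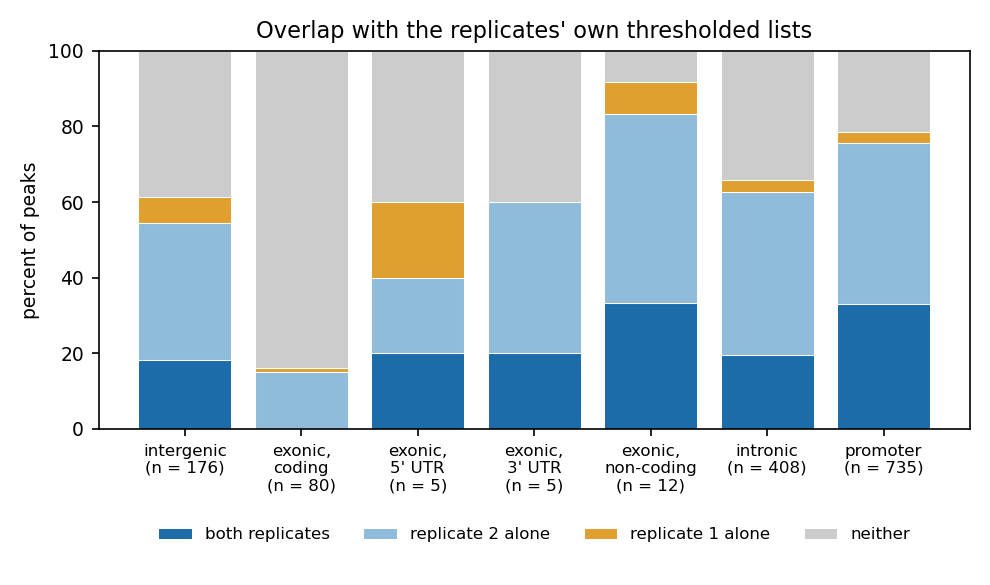
Percent of pooled thresholded peaks that overlap a thresholded peak of both replicates, of 1 replicate alone or of neither, by class. The bar of the 80 coding-exon peaks has no part in both replicates and is 83.8% in neither, and in each class more peaks are in replicate 2's list alone than in replicate 1's alone, apart from the 5 in 5′ UTRs, with 1 of each.

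Heights in the single replicates can be read at the pooled summit wherever a replicate has a candidate region there, although no source says that the replicates share a scale. Among intergenic peaks the median height was 30.6 in replicate 1 (160 peaks) and 56.2 in replicate 2 (169 peaks), and among exonic peaks 27.5 (95 peaks) and 46.3 (98 peaks). For the 158 intergenic peaks with a height in each, Spearman's rho between replicates was 0.23, as a description across peaks of the same libraries. For the 72 coding peaks it was -0.37. Only peaks of the pooled thresholded list enter these values, so neither measures how well the replicates match genome-wide. Single heights reached down to 5.05 in replicate 1 for intergenic peaks and 2.57 for coding peaks.

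**Figure D3:**
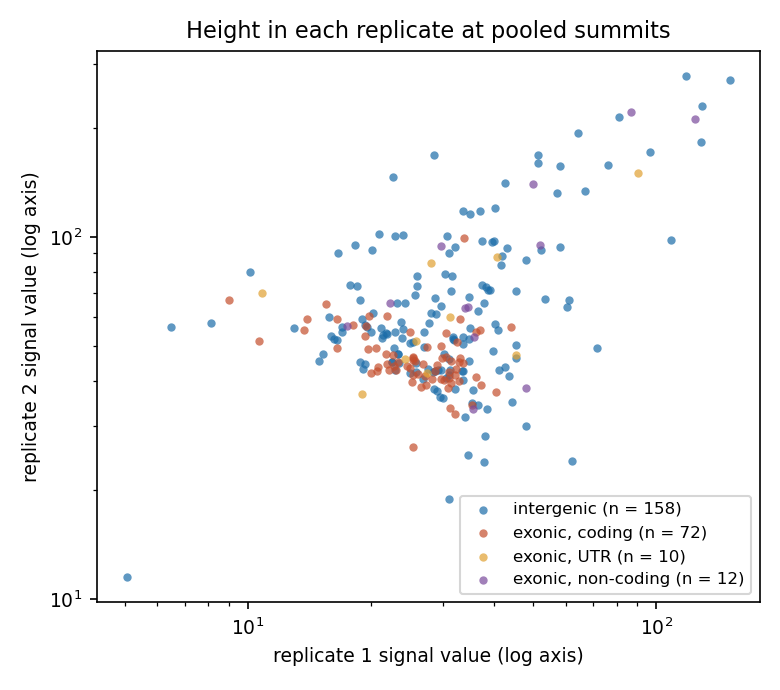
Signal value in replicate 1 against replicate 2 (log axes) at pooled summits of intergenic and exonic peaks that had a candidate region in each; every point is 1 peak. A tail of intergenic, UTR and non-coding-exon peaks is high in both replicates, up to 151 in replicate 1 for tara, while coding peaks stay at or below 44.2 in replicate 1.

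Base composition separated the classes in opposite directions. Summit windows, which reach 50 bp to the left and right, had a median A+T of 59.4% in intergenic peaks, above the 53.5% of intergenic candidate regions outside the thresholded list. The exonic median was 40.6%, below the 45.5% of exonic candidates. A summit window above the median of its own class's candidates was found in 111 of 176 intergenic peaks (63.1%) and in 29 of 102 exonic peaks (28.4%). Both shares differed from those of the candidates (49.0% and 49.8%) by Fisher's exact test, adjusted over 4 classes (adjusted p = 0.000198 for intergenic and 2.07e-05 for exonic). Intronic and promoter peaks lay on the A+T-rich side, with 74.3% and 83.3% of windows above their candidates' medians. The exonic result turned round when a single replicate's own thresholded list replaced the pooled list, with 17.6 percentage points more windows above the median than candidates for replicate 2 (adjusted p = 0.0415) and 14.3 more for replicate 1 (adjusted p = 0.407, exact test). It missed the threshold of the exact test in the conservative list (adjusted p = 0.711) and with a start-site limit of 250 bp (adjusted p = 0.105), and the intergenic result missed it in replicate 1's own list (adjusted p = 0.330). The intergenic share exceeded that of its candidates by 14.1 percentage points in the pooled list, 28.5 in replicate 2's list and 9.33 in replicate 1's.

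Coding peaks carried the low A+T, and peaks elsewhere in exons did not. Median A+T was 39.6% in coding peaks (44.6% in coding candidates), 57.4% in UTR peaks and 63.4% in non-coding exons (52.5% in their candidates). Only 5 of 80 coding windows were over 50% A+T, beside 133 of 176 intergenic windows and 17 of 22 windows elsewhere in exons. Among intergenic peaks, 29 of the 32 in both lists had over 50% A+T, and so did 55 of the 64 in replicate 2's list alone. The share was lower in replicate 1's list alone (7 of 12) and in neither list (42 of 68). All 6 exonic peaks in both lists lay outside coding sequence and had over 50%. Of the 72 in neither list 6 did, and 67 of those 72 were coding. Among coding peaks, 1 of the 12 in replicate 2's list alone had over 50%, beside 4 of the 67 in neither. Signal value and A+T had a Spearman's rho of 0.36 across the 176 intergenic peaks and -0.14 across the 80 coding ones, given as descriptions.

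**Figure D4:**
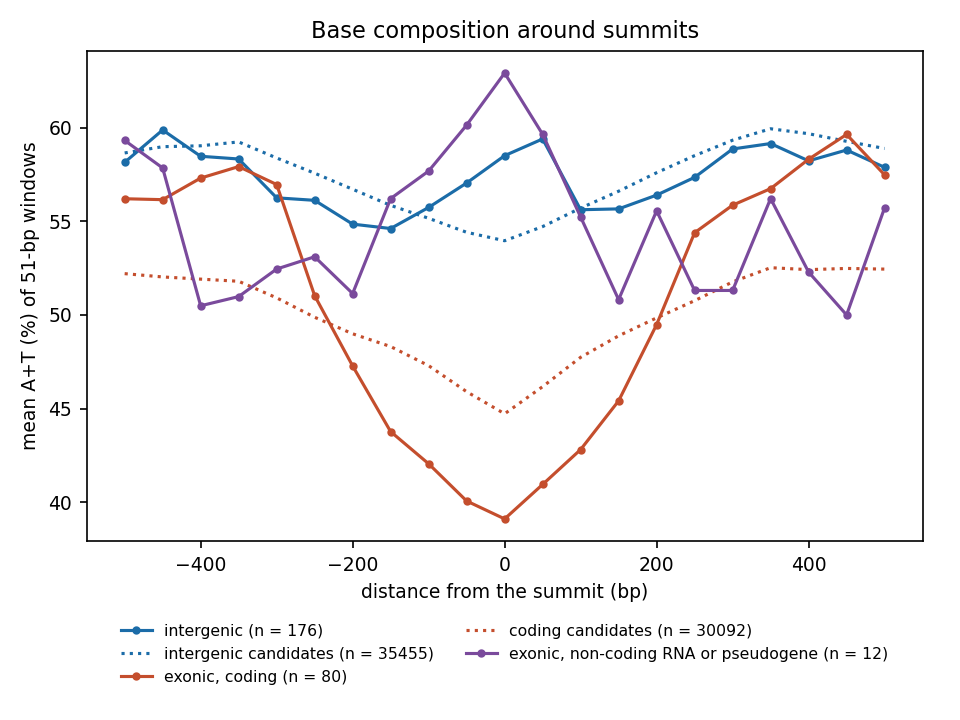
Mean A+T (percent) of 51-bp windows at 50-bp steps from the summit; solid lines are thresholded peaks and dotted lines are candidate regions of the same kind outside the thresholded list. Coding peaks dip from 56.2% at 500 bp on the left to 39.1% at the summit and return to 57.5% on the right, below their candidates at the summit (44.7%), while the intergenic line stands at 58.5% at the summit where its candidates dip to 53.96%.

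The dip at coding summits was local, and coding candidates dipped too, to 44.7% at the summit. Exons that held exonic peaks had a median length of 881.5 bp, so windows at 500 bp can lie outside the exon. How many did was not counted. Mean A+T at 500 bp on either side of coding peaks (56.2% and 57.5%) was higher than around coding candidates (52.2% and 52.4%), and it fell to 39.1% at the summit. In non-coding exons the mean was 62.9% at the summit, with 12 peaks. Repeats masked in the genome covered a median of 16.1% of an intergenic peak and 6.10% of an exonic one.

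A set of 10 words were searched for at the summits, in windows of 50 bp on either side and on either strand, beside candidate regions of the same class and width. GATAA, the core bound by GATA factors, was in 28 of 176 intergenic windows on either strand (15.9%), beside 14.9% of intergenic candidates, 16.8% of windows 500 bp away and 21.9% of promoter summits. In exonic windows it was in 10 of 102 (9.80%), beside 12.2% of exonic candidates and 17.6% of windows 500 bp away. AGATAA, which contains GATAA, was in 11 intergenic windows (6.25%; candidates 4.15%; flanks 5.97%) and 1 exonic window (0.980%; candidates 2.70%; flanks 6.37%). GACAAGATA and GAAGATGAG, words bound by the zinc fingers of mammalian EVI1, were in no intergenic and no exonic window, and each was in at most 0.183% of the candidates of either class. CAGCTG, an E-box bound by bHLH proteins, was in 15 of 102 exonic windows (14.7%; candidates 7.90%; flanks 6.37%) and in 7 of 176 intergenic windows (3.98%; candidates 4.90%).

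Of the words known from promoters, TATCGATA, bound by DREF, was in no intergenic and no exonic window but in 17 promoter windows (2.31%). GGTCACACT, bound by M1BP, was in 1 intergenic window (0.568%) and 9 promoter windows (1.22%). GAGAG, bound by GAGA factor, was in 15.3% of intergenic windows (candidates 11.9%) and 12.7% of exonic windows (candidates 12.5%). CAGGTA, bound by Zelda, was in 5 intergenic and 2 exonic windows, TGACTCA, bound by AP-1, in 1 and 0. A dinucleotide repeated 6 times was in 3 intergenic windows and in no exonic window. These matches are descriptions of letters in a window and not of binding.

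Intergenic peaks lay closer to start sites than intergenic candidates did. The median distance to any start was 3352 bp (504 to 426614 bp) for the peaks and 4849 bp for the candidates. Between 500 and 1000 bp from a start, 1.35% of candidates passed the threshold (39 peaks), against 0.665% between 1000 and 2000 bp, 0.459% between 2000 and 5000 bp, 0.317% between 5000 and 20000 bp and 0.335% beyond 20000 bp (16 peaks). The median height was 85.5 in the nearest of these bins, 74.8, 86.2 and 83.5 in the next 3 and 72.6 in the farthest. Of the 173 peaks between 2 annotated genes, 90 lay between genes in tandem, 43 between divergent and 40 between convergent genes, in gaps with a median of 10284 bp. The same split was not counted for candidates, so no preference for an arrangement can be read from it.

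Intergenic peaks were near another Ham peak about as often as intronic peaks were. Another thresholded summit lay within 2000 bp of 52 intergenic peaks (29.5%) and 14 exonic peaks (13.7%), beside 28.4% of intronic and 16.2% of promoter peaks. These counts include peaks that overlapped another one, 19 intergenic and 8 exonic. A promoter peak as well was found at 10 of the 137 nearest coding genes (7.30%) and 8 of the 86 coding host genes (9.30%), shares near the 6.59% of all 13968 coding genes. By arm, 54 intergenic peaks were on 3L (30.7%, against 22.4% of intergenic candidates) and 43 on 2L (24.4%, against 19.7%). Below their share of candidates were 3R (32 peaks, 18.2% against 24.8%), 2R (27 peaks, 15.3% against 18.0%) and X (18 peaks, 10.2% against 13.9%). Of the exonic peaks, 28 were on 3R (27.5%, against 25.2% of exonic candidates), 26 on 2R (25.5%, against 19.3%) and 9 on X (8.82%, against 18.4%).

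The tallest intergenic peak lay at chr3R:16222388-16222589, 3173 bp upstream of tara (taranis), a trithorax group gene, between lncRNA:CR45641 and lncRNA:CR45643. The nearest annotated start, at lncRNA:CR45643, was 917 bp from the summit, so with a limit of 1000 bp this would be a promoter peak. Its signal value was 422, rank 32 of 1495, with 151 in replicate 1 and 271 in replicate 2. A second, lower peak of 68.6 lay 662 bp away. The next intergenic peak, at chr2R:13035244-13035422, had a signal of 401 (118 and 278 in replicates 1 and 2) in the gap between CG13323 and Su(z)2, a Polycomb group gene, 11910 bp downstream of the CG13323 start. Both peaks were in both replicates' lists, and each stood above every exonic peak in the pooled list.

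Among the next intergenic peaks, 3 lay just beyond the promoter limit. At chrX:493916-494099 the signal was 363 (130 and 230), 504 bp upstream of CG17896 and between divergent genes. At chr3R:21520300-21520426 it was 293 (81.0 and 214), 571 bp upstream of sp3 in the gap that follows the homeobox gene C15. At chr2R:8014335-8014458, 646 bp upstream of CG14762, it was 261 (96.7 and 171). These 3 were in both replicates' lists, and with a limit of 1000 bp they would be promoter peaks.

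A gap upstream of chinmo, a BTB zinc finger gene that sets the temporal identity of neurons, held 4 intergenic peaks. This gap lies between lncRNA:CR44603 and lncRNA:CR45695. From the farthest to the nearest, the peaks were at 18425, 17008, 12439 and 7774 bp from the chinmo start. The nearest annotated starts of any gene were 6812, 8229, 8344 and 3679 bp away. The 4 peaks had signals of 211, 124, 316 and 212. In replicate 1 they measured 58.2, 24.0, 129 and 67.1, and in replicate 2 they measured 157, 101.2, 183 and 134. The same order from highest to lowest did not hold in the 2 replicates, but the peak at 12439 bp (chr2L:1638777-1638895) was the highest and that at 17008 bp the lowest in each. All but the one at 17008 bp were in both lists, and a further exonic peak of 129 lay in lncRNA:CR44603, on the far side of the group.

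Upstream of foxo, the forkhead factor of insulin signalling, 2 peaks lay 1194 bp apart. The nearer, at chr3R:14053418-14053753, was 3359 bp from the start with a signal of 258 (64.3 and 194), and the other was 4553 bp away with 157 (36.9 and 118). Both were in both lists. Their summit windows were rich in A+T, at 83.2% and 71.3%.

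Of the other intergenic peaks among the 10 highest, that at CG4702 (chr3R:12121200-12121535) had a signal of 230 (76.1 and 158), 6833 bp downstream of its start and 215 bp from the end of the gene. That at Cpr76Ba, a cuticle protein gene (chr3L:19516681-19516803), had 221 (51.4 and 168), 1598 bp downstream of its start. All 10 of the highest were in both lists, and so were 15 of the highest 16. The exception was the peak at jp with 195, where replicate 1 had 28.6 and replicate 2 had 168.

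Below these came the peaks of both lists whose nearest coding genes were CG13898 (207), RYBP (192), CycB (188) and CG43245 (186). That of CG13898 lay 22694 bp downstream of the gene's start, and that of CG43245 lay 19143 bp upstream. RYBP is a Polycomb-associated gene, and 3 peaks of 136, 107 and 192 lay 5833 to 7619 bp downstream of its start. The last of these, at chr2R:22678216-22678551, was the only one of the 3 in both lists and measured 109 in replicate 1 and 98.2 in replicate 2. The CycB peak (57.1 and 132) lay 563 bp from the end of this cyclin gene, at chr2R:22802790-22803125. In the gap between CG43245 and NijA, 4 peaks measured 83.0, 131, 67.3 and 186, of which 3 were in both lists, including a pair that overlapped.

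A peak of 125 upstream of ph-d (60.5 and 64.1) lay at chrX:2123844-2124179, 726 bp from its start in the gap before ph-p; both genes encode the Polycomb group subunit polyhomeotic. Further intergenic peaks in both lists included those at Atf3 (133; 61.1 and 66.8), RasGAP1 (136; 52.1 and 91.9) and between CG8519 and ple, the tyrosine hydroxylase gene (148; 34.9 and 116). At Marf1 (133; 53.3 and 67.3) and CG42598 (95.8; 40.9 and 55.5) the windows held 39.6% A+T each, the lowest of the 32. The Marf1 peak lay 36480 bp from that gene's start, in a gap of 163482 bp, and overlapped annotated copies of the transposable elements Cr1a and baggins. The lowest of the 32 in height was the shoulder of 3.91 at ph-d.

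**Figure D5:**
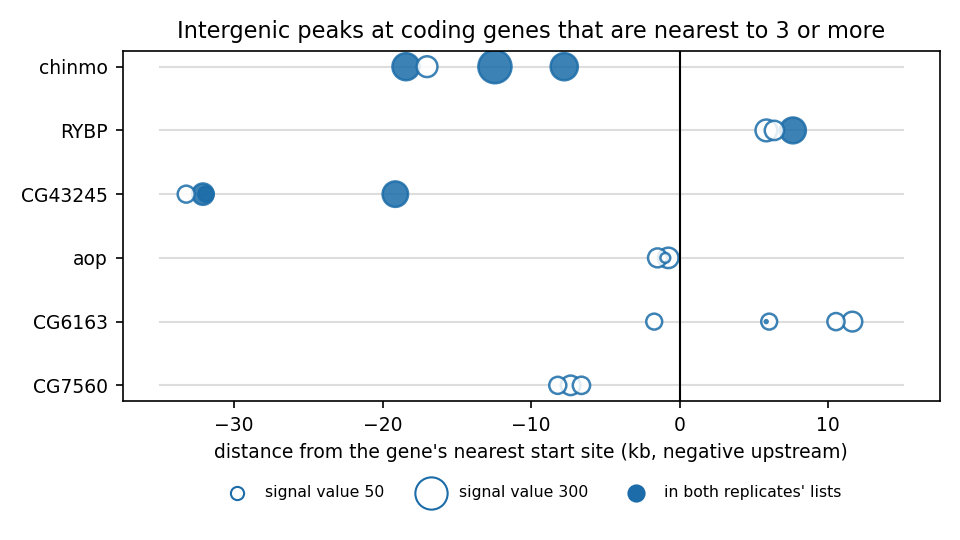
Intergenic peaks at 6 coding genes that are the nearest to 3 or more, by distance (kb) from the gene's nearest start, negative upstream; the area of a circle is the signal value and filled circles are in both replicates' lists. Filled circles occur at chinmo, RYBP and CG43245, and peaks at aop, CG6163 and CG7560 are open; Myo81F and CG46302, whose peaks lie over 80 kb away, are not drawn.

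Clusters were not all tall. There were 25 genes nearest to 2 or more intergenic peaks, with 64 peaks in all, and 15 of these genes had no peak in both lists. Overlapping peaks are counted singly here: the 2 summits lay only 200 to 214 bp apart at CG13321, Rilpl, ph-d and CG8765. At Myo81F the 3 peaks spanned 346327 bp. CG6163 had 5 peaks of 2.40 to 112 and CG7560 had 3 of 83.9 to 110, none of them in both lists. Upstream of aop (yan), an ETS repressor of EGFR signalling, 3 peaks of 120, 27.6 and 103 lay within 727 bp, all in replicate 2's list alone. At hry (hairy), a pair-rule repressor, 2 peaks of 77.5 and 80.4 lay 20757 and 22025 bp downstream of its start, and a further 2 of 76.7 and 112 in the same gap were nearer to SrpRbeta; of these 4, the one of 112 was in both lists. Beside noc, a zinc finger gene, peaks of 110 and 118 were both in replicate 2's list alone.

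The peaks farthest from any start were in the pericentromeric part of chromosome 3R. Those at chr3R:140294-140629 and chr3R:174704-175039 lay 426614 and 392204 bp from the nearest start, that of Myo81F, with signals of 90.9 and 67.9. Both were higher in replicate 1 (62.4 and 34.6) than in replicate 2 (24.0 and 25.1), whereas the median intergenic peak had the larger value in replicate 2. Repeats covered 94.0% and 83.0% of them, and 51 bases at the first summit occurred 371 times in the arms, so reads there cannot be placed with certainty. Another at chr3R:2533769-2534104, 210863 bp from a start, had 72.5 (35.5 and 34.7). The 51-bp summit window was unique in the arms for all but 1 of the 176 intergenic peaks and all but 1 of the 102 exonic peaks.

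The tallest exonic peaks lay in non-coding RNAs. In lncRNA:CR44619, the peak at chrX:12752285-12752457 had a signal of 336 (124 and 211 in replicates 1 and 2), 521 bp downstream of a start in the first of 2 exons. A second peak, at chrX:12754386-12754721, had 176 (49.9 and 140) in the other exon. In lncRNA:CR46035, a gene of 1 exon, the peak at chr3R:17704348-17704505 had 310 (86.8 and 221). All 3 were in both lists and had 70.3% to 77.2% A+T.

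Between these in height stood Fbl6, an F-box gene, with 236 (90.1 and 150) in its 5′ UTR at chr2R:11289202-11289322. That 5′ UTR exon is in 1 of the 3 transcripts of the gene, and the peak lay 515 bp from the start. The antisense RNA asRNA:CR45189 held a peak of 146 (52.1 and 95.02) whose nearest coding start was that of zfh1, 1540 bp away. The last 2 of the 6 exonic peaks in both lists were in the 3′ UTR of CG7872 (119; 40.7 and 87.8) and in lncRNA:CR45128 (32.8; 35.7 and 52.8). In the 3′ UTR of by, the tensin gene, a peak of 115.4 was in replicate 2's list alone (28.1 and 84.4).

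Coding peaks began with otp (orthopedia), a homeobox gene, at chr2R:20884412-20884747 in the last of 7 exons, with a signal of 129 (33.8 and 99.6). CG11951 had 107 (44.2 and 56.4) in exon 4 of 6, and Pde1c, a phosphodiesterase gene, had 100.3 (37.1 and 55.2) in its last exon and a second peak of 74.3 some 22005 bp away. All 3 lay 1540 bp or more from the host's start. The otp exon and the last Pde1c exon are part of all 9 transcripts of each gene. Of these, the otp and the tall Pde1c peak were in replicate 2's list, and the others were in neither.

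The remaining coding hosts with 2 peaks were mtt, Mip, which encodes the myoinhibiting peptides, and Sf3a1. In each the second peak (4.44, 10.9 and 3.47) overlapped the first (65.0, 67.0 and 71.1). The exons that held exonic peaks had a median length of 881.5 bp (109 to 5982 bp), and 18 were shorter than the peak itself. Of the 102 exonic peaks, 76 were in an exon of every transcript of the host and 9 lay in more than 1 gene body, where the host is uncertain.

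The genes beside these peaks were set against lists for tissues and pathways in which Ham or its neighbours are known. Over all coding genes, 0.981% were nearest to an intergenic peak and 0.616% had an exonic peak. The segmentation list had 4 of 28 genes nearest to an intergenic peak: ems (83.5), hry (80.4), sob (74.5) and slp2 (74.4), with the highest signal of each. Of these genes' 5 peaks none was in both lists. The ems peak lay 13104 bp and the hry peaks 20757 and 22025 bp downstream of the starts, and those of sob and slp2 2412 and 4307 bp upstream. The share over all coding genes does not allow for the width of the gap beside a gene, so the 2 shares are not like for like. The neuroblast and temporal list had 2 of 27, chinmo and sna, the mesodermal zinc finger gene (68.0).

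The sensory organ list had 1 of 30, hry, and no gene with an exonic peak. The signalling list had fz, a Wnt receptor, by an intergenic peak (73.5) and Egfr by a coding one (69.4), each 1 of 32. The Notch list had kuz, the protease that cleaves Notch, by a coding peak (74.0) and no intergenic peak among 22 genes. The cuticle list had Cpr76Ba and Gasp, 1 of 108 for each kind. Neither kind of peak was at a gene of the Hox (12), neuronal function (27) or ribosomal protein (91) lists. With list genes at 0 to 4 each, single genes decide these shares.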

How the data were processed

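The authors deposited peak lists on dm6 for each replicate and for the replicates pooled, per the labels: ranked candidate regions and thresholded peaks, plus a shorter conservative list. The signal value of a peak is the authors' deposited height, and the deposited score of thresholded peaks ran from 830 to 1000. For the aligner and the peak caller, no name is given in the sources used here. Read depth is unknown.

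Summits were classed with the Ensembl release 115 annotation (BDGP6), leaving out transposable element copies, in Python 3.11.15 with pandas 2.3.3 and scipy 1.17.1. No candidate region ended beyond its RefSeq Release 6 arm. Replicate heights are the signal of the replicate's candidate region at the pooled summit. Shares were compared by two-sided Fisher's exact tests with Benjamini-Hochberg adjustment, after a check on simulated peaks. Windows were 50 bp on either side of a summit. Named peaks are the 10 highest of each kind, the highest in both lists, the 3 farthest, the highest of each gene list and genes with 2 or more. Older symbols were replaced through RefSeq. Peaks, lists, words and tests were chosen with earlier results of these data known.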

Additional observations from a re-analysis of the deposited data

How the results depend on the processing

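The classes were counted again with start-site limits of 250 and 1000 bp, protein-coding genes only, peak midpoints, merged peaks, a 50% overlap, other windows, the conservative list and each replicate alone; counting transposable element copies as genes, coding sequence only, and leaving out Y and summits over 20 kb from a start were chosen after seeing the data. Differences below are in percentage points, the first class minus the second, with adjusted p by Fisher's exact test. Of the 150 recomputed values, 128 kept their direction and their side of the threshold, or a count within 1.5 times.

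The conservative list held 82 intergenic and 29 exonic peaks, and the single replicates' lists held 48 to 102 and 13 to 35. With the conservative list and the exact test, support of exonic peaks differed from intronic by -19.3 (adjusted p = 0.127) and intergenic from exonic by 17.1 (0.186), height by -13.9 (0.306) and 13.7 (0.319), and A+T of exonic peaks from their candidates by -4.90 (0.711). With a start-site limit of 250 bp, the exonic A+T difference was -7.06 (adjusted p = 0.105, exact test). With 1 replicate left out, support of intergenic against intronic peaks ran from -8.20 to 2.21 and their height from -3.95 to 4.98. Support ran from -36.3 to -13.97 for exonic minus intronic, from -49.04 to -27.2 for exonic minus promoter and from 16.2 to 28.1 for intergenic minus exonic, with the larger values from replicate 2's list alone. Exonic minus intronic height ran from -23.98 to -17.3, intergenic minus promoter from -22.4 to -6.83, and intergenic minus exonic from 20.03 to 22.3. Intergenic A+T minus candidates ran from 9.33 to 28.5, and exonic from 14.3 to 17.6, against -21.4 in the pooled list. Coding peaks were 80 of the 102 pooled exonic peaks. They were 1 of the 9 that overlapped replicate 1's list and 12 of the 27 that overlapped replicate 2's. The cause of the change in exonic A+T was not tested. Coding sequence alone gave -33.9 (adjusted p = 3.96e-10, exact test).

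No paired analysis was possible because the series has 1 group. Depth is unknown, so no limit of detection is given.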
